A study of Mus musculus with 12 samples.

Results

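What constitutively active IKKβ adds to the transcripts of mouse oesophageal epithelium from which Stat3 has been deleted was read from 2 groups of libraries. The contrast took the 3 libraries labelled Ikkβca+Stat3KO minus the 3 labelled Stat3KO, which is 6 of the 12 libraries of the series. Its members were fixed by these genotype labels and not by any measured value. Of 23337 gene symbols 14134 passed the count filter and were tested.

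Every library came from C57BL/6 mice at 6 weeks of age, from oesophageal epithelium separated mechanically from the underlying stroma, and polyadenylated RNA was sequenced. Animals of the Stat3KO group (here Stat3 loss) carried ED/L2-Cre+ and Stat3L/L. The Ikkβca+Stat3KO group (here combined) carried the same Cre and floxed alleles together with ROSA26-StopFL-Ikk2ca+/L, a Rosa26 allele whose active IKK2 is silent until Cre removes a stop cassette. Cre and Stat3L/L were therefore on both sides of the contrast, and the Ikk2ca allele was its only labelled difference. The other groups gave values side by side and also entered the fit, and so its estimate of the spread. They were Ikkβca (here active IKKβ: ED/L2-Cre+ with ROSA26-StopFL-Ikk2ca+/L) and Control, in which the Ikk2ca allele and Stat3L/L were present without Cre. ED/L2 is an Epstein-Barr virus promoter that is active in stratified squamous epithelium of the oesophagus, so alleles in other cells of the tissue were not its target.

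IKKβ, encoded by Ikbkb and also called IKK2, is the kinase that marks the inhibitor IκBα for degradation and so frees NF-κB dimers to enter the nucleus. NF-κB then switches on chemokines, cytokines and survival genes, and also its own brakes, among them IκBα and the ubiquitin-editing protein A20. STAT3 is a transcription factor activated by cytokines of the IL-6 family. It shares many target genes with NF-κB and is active in squamous epithelium during inflammation and repair.

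In replicate order, Stat3 loss libraries held 19.8 M, 21.1 M and 19.4 M counts and combined libraries 21.4 M, 14.8 M and 21.0 M. The labels do not say that replicates were separate animals, so p-values measure the spread between libraries. For edgeR that spread was estimated from all 12 libraries of the series. Stat3, at chr11:100885098-100939540 (mm10), had 139, 154 and 145 CPM (counts scaled to library size) with Stat3 loss and 170, 154 and 194 in combined libraries, a log2 difference of 0.24 ± 0.15 (SE, edgeR adjusted p = 0.723, exact permutation p = 0.1). Ikbkb, at chr8:22659212-22706589, had 72.4, 68.3 and 61.2 CPM against 89.8, 83.4 and 97.0, and all 3 combined libraries lay above the others (0.42 ± 0.14, edgeR adjusted p = 0.319, exact permutation p = 0.1, the smallest that 3 against 3 libraries allow). For Stat3, Control had 174, 157 and 179 CPM and active IKKβ 158.5, 222 and 239. The Stat3 loss libraries thus lay below all Control libraries, while the combined libraries overlapped with Control. Counts per gene do not show whether the floxed exons were missing or which Ikbkb reads came from the Rosa26 allele. Stat3 is therefore called deleted or deficient here by the genotype labels. The libraries also differed in the share of counts taken by Krt4 and Krt13, the keratins of the suprabasal layers: Stat3 loss replicate 3 and combined replicates 1 and 3 had 10.4% to 13.4%, and the other 3 libraries had 4.05% to 6.62%. Both groups thus held libraries of either kind, and the group difference in this share was 2.02 percentage points (exact permutation p = 0.6).

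Active IKKβ in Stat3-deficient epithelium was accompanied by a small set of strong rises and hardly any falls. Called genes, those with an edgeR quasi-likelihood adjusted p below 0.05 over all 14134 genes, numbered 58 higher (0.41% of genes tested) and 7 lower (0.0495%), or 0.46% together. NF-κB feedback inhibitors, the chemokines Ccl20, Cxcl5 and Cxcl16, the cytokine subunit Il23a and the keratins Krt16 and Krt10 were among the rises. Others lay outside the inflammatory lists, led by the glutamate transporter Slc1a3 and the homeobox gene Irx4. The median log2 fold change of the 58 was 2.74, and that of all genes tested was 0.01. Of all genes tested 7357 lay above 0 and 6776 below. These shares are the background for the list counts below. Genes of a list are not independent, and their counts above or below 0 were not tested. In all 65 called genes the groups did not overlap, which held for 12.9% of genes tested (6.06% with the combined group above and 6.87% with it below). The 65 were picked by a test of these same libraries, so their separation follows from the selection and is no further support. DESeq2 called 194 genes higher and 98 lower, 1.92% of those it tested. When edgeR was fitted to only the 6 libraries compared, 16 genes were called higher and 0 lower.

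The number of calls depended on single libraries. Without Stat3 loss replicate 1, 2 or 3 the counts were 28 higher and 0 lower, 20 and 0, and 27 and 5. Without combined replicate 1, 2 or 3 they were 77 and 4, 38 and 4, and 33 and 0. A total of 19 genes stayed called in all 6 of these fits, namely Slc1a3, Irx4, Rassf6, Trnp1, Steap4, Cxcl16, Wnt10b, Lgi2, Lrrc32, Vnn3, Il23a, Kcnip3, Foxs1, Reep1, Arhgdib, Noxo1, Relb, Zc3h12a and H2-M2. The other 46, all 7 lower genes among them, lost their call in at least 1 fit. All 65 kept their direction, which was all but fixed in advance, because groups without overlap keep their order when 1 library is left out. Combined replicate 1 was the lowest library of its group for 43 of the 58 higher genes, and combined replicate 3 was the highest for 32.

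**Figure D1:**
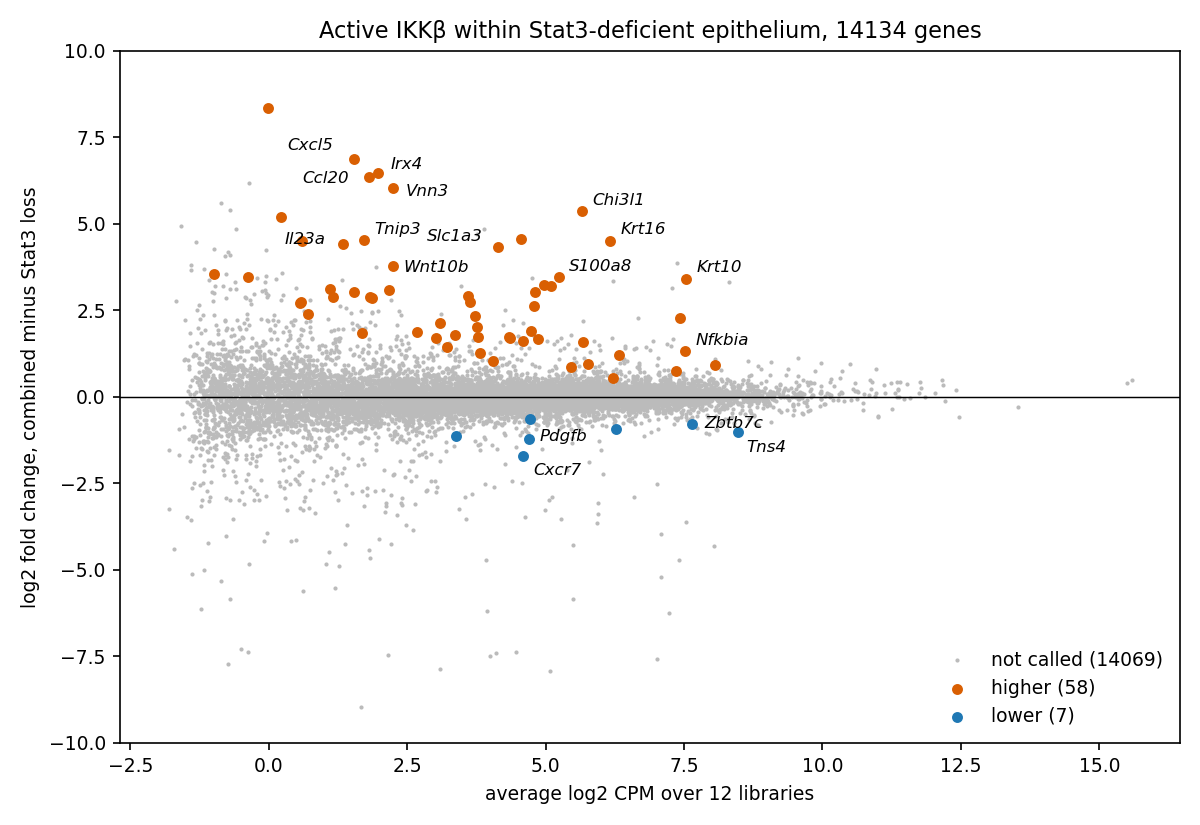
Each point is 1 of 14134 genes, with its average log2 CPM over 12 libraries on the horizontal axis and the log2 fold change, combined minus Stat3 loss, on the vertical axis. The 58 genes called higher (orange) reach far above the line at 0, and the 7 called lower (blue) lie close beneath it.

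The promoters of 6 genes called higher are shown to make visible what a κB element, the site that NF-κB dimers bind, looks like in them. They were picked because they hold a match, and the promoters of Irx4, Vnn3, Galnt6 and Slc1a3, which rose as much as or more than several of them, hold 0. The sequences are from RefSeq on build GRCm38.p6, each the 250 bases before the annotated start, written 5′ to 3′ on the strand of the gene. Matches of the κB consensus, a degenerate motif of 10 bases searched on both strands, are in capitals. Nfkbia lies on the minus strand (chr12:55492648-55492897), Tnip3 on the plus strand (chr6:65590148-65590397), Ccl20 on the plus strand (chr1:83116516-83116765), Wnt10b on the minus strand (chr15:98778151-98778400), Steap4 on the plus strand (chr5:7960222-7960471), and Chi3l1, now named Chil1, on the plus strand (chr1:134181906-134182155).
Nfkbia: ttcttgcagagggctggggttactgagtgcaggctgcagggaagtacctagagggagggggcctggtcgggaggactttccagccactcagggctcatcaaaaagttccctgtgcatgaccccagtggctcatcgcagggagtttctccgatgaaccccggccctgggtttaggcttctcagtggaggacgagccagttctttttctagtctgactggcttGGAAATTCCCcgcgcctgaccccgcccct
Tnip3: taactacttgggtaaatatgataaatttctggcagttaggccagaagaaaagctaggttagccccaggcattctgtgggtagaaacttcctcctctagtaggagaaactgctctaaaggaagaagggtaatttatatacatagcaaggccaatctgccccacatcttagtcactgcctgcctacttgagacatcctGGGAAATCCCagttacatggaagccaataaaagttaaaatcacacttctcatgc
Ccl20: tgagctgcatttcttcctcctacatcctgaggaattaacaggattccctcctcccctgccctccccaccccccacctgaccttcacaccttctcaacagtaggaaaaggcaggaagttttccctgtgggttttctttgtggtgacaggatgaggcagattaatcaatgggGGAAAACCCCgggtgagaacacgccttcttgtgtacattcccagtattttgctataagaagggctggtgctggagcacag
Wnt10b: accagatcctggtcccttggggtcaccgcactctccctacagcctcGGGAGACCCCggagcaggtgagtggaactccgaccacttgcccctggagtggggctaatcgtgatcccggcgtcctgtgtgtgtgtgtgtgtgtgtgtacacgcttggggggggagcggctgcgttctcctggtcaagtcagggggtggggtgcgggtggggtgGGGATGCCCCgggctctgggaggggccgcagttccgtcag
Steap4: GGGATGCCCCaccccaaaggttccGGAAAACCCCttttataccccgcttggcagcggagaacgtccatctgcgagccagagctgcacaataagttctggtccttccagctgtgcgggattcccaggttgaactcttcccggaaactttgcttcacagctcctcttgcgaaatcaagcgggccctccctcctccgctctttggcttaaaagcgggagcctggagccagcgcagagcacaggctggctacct
Chi3l1: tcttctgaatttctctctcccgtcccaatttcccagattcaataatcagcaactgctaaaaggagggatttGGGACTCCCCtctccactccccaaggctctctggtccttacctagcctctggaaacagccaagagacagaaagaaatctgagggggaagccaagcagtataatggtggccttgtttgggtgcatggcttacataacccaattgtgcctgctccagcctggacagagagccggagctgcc
A κB match was present in 13 of the 45 higher genes that had a promoter in the table (28.9%), and in 2225 of all 27025 genes in the table (8.23%). The STAT motif TTCNNNGAA, also searched on both strands, was found in 6 of the 45 (13.3%) and in 8.13% of all genes, and Steap4 held 1 such match (TTCCCGGAA, in lower case above) beside its κB matches. Of the 7 lower genes 4 had a promoter, and 0 of them held either motif. All genes in the table include genes that were not tested here. A gene with more than 1 annotated start counted if any of its windows matched, and the 45 had 60 windows and all genes 32851. These counts describe letters in the windows and were not tested.

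Of the NF-κB family and its IκB inhibitors 3 were called higher and 0 lower of 11 tested, with a median log2 fold change of 0.87. Of all genes tested 0.41% were called higher. Nfkbia, at chr12:55489410-55492647, encodes IκBα, the inhibitor that IKKβ targets. Its level was 109, 93.4 and 103 CPM with Stat3 loss and 189, 281 and 287 CPM in the combined group. The highest library without active IKKβ was far below the lowest with it, and the log2 fold change was 1.31 ± 0.17 (SE, n = 3 against 3, edgeR adjusted p = 0.0056, and 0.0544 without Stat3 loss replicate 2). Its promoter, printed above, had 1 κB match within the last 30 bases before the start.

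Relb, at chr7:19606217-19629438, encodes the RelB subunit of the alternative NF-κB dimer. It stood at 7.62, 11.7 and 9.93 CPM with Stat3 loss and at 21.8, 38.7 and 36.9 CPM in the combined group (1.73 ± 0.23, edgeR adjusted p = 0.00616). Nfkb2, the precursor of its p52 partner, had 28.9, 33.3 and 28.6 CPM against 41.5, 61.6 and 63.5, a smaller rise with no overlap. Its log2 fold change was 0.87 ± 0.16 (edgeR adjusted p = 0.0427), and the call was lost with the replicate number as a block (0.0677) and in 5 of the 6 fits without 1 library (up to 0.205). The subunits of the classical dimers did not pass: Rela differed by 0.31, Rel by -0.03 and Nfkb1 by 0.01 on the log2 scale. The inhibitors Nfkbie, Nfkbiz and Bcl3 had values of 1.30, 1.06 and 0.88 and did not pass either (edgeR adjusted p 0.192, 0.329 and 0.458). DESeq2 called Nfkbie (DESeq2 adjusted p = 0.0234).

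Of the IKK complex and the kinases and adaptors above it 0 of 14 tested were called, with a median of 0.15. In 9 of the 14 the groups did not overlap, against 12.9% of all genes, but the differences were small. Traf2, an adaptor of TNF receptors, had 27.3, 31.2 and 35.8 CPM with Stat3 loss and 41.5, 41.7 and 49.4 in combined libraries. Its log2 difference was 0.49 (edgeR adjusted p = 0.17, DESeq2 adjusted p = 0.0334). Tab1, which activates the kinase upstream of IKK, had 60.6, 57.7 and 45.1 CPM against 39.4, 38.9 and 36.4 (-0.51, edgeR adjusted p = 0.36).

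Among NF-κB feedback and survival genes 4 of 19 tested were called higher and 0 lower, with a list median of 0.19. Of all genes 0.41% were called higher. Zc3h12a, at chr4:125118423-125127840, encodes Regnase-1, an RNase that degrades cytokine mRNAs. Its level was 50.6, 32.4 and 43.5 CPM with Stat3 loss and 103, 84.96 and 106 CPM with both alleles (1.22 ± 0.16, edgeR adjusted p = 0.00616). Tnip3, a partner of A20 at chr6:65525313-65634040, was nearly absent with Stat3 loss at 0.0901, 0.264 and 0.382 CPM and reached 2.50, 5.92 and 8.64 CPM in the combined group. Its log2 fold change of 4.53 ± 0.60 (edgeR adjusted p = 0.0066, and 0.0627 without Stat3 loss replicate 2) was the largest of this list.

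Tnfaip2, a TNF-induced gene, had 50.3, 25 and 64.0 CPM against 190, 139 and 341 (2.27 ± 0.39, edgeR adjusted p = 0.038). Tnfaip3, which encodes A20, had 11, 9.84 and 10.6 CPM with Stat3 loss and 23.6, 29.9 and 48.1 with both. The Stat3 loss libraries of Tnfaip3 were nearly equal, and every combined library was above them. The call of Tnfaip3 (1.69 ± 0.31, edgeR adjusted p = 0.0427) did not survive the replicate block (0.0915) and was lost in 5 of the 6 fits without 1 library (up to 0.219), and that of Tnfaip2 in 4 of the 6 (up to 0.167). Birc3, an inhibitor of apoptosis, and Tnip1, a further A20 partner, did not overlap between the groups but did not pass (0.95 and 0.69, edgeR adjusted p 0.0585 and 0.0671). The survival genes Bcl2l1, Cflar and Birc2 had values of -0.20, 0.11 and 0.08.

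Chemokines were among the largest rises. Ccl20, at chr1:83116766-83119167, attracts cells that carry CCR6, such as Th17 cells and immature dendritic cells. It had 0.0451, 0.0879 and 0.273 CPM with Stat3 loss, 8 counts in all, and 9.76, 10.6 and 12.6 CPM in the combined group, 618 counts in all. The 3 combined libraries were closely alike for this gene, and the log2 fold change was 6.35 ± 0.79 (edgeR adjusted p = 0.00552, and 0.0544 without Stat3 loss replicate 2). It was the only called gene of 11 tested CC and CX3C chemokines. Ccl22 and Ccl2 had log2 differences of 2.61 and 3.32 from low levels and did not pass (edgeR adjusted p 0.172 and 0.327). DESeq2 called Ccl22 but not Ccl2 (DESeq2 adjusted p 0.00546 and 0.0965).

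Of 8 tested CXC chemokines 2 were called higher, Cxcl16 and Cxcl5, where 0.41% of all genes were called higher, and the list median was 1.17. Cxcl16, at chr11:70453983-70459984, is a membrane-bound ligand of CXCR6. It went from 5.72, 7.51 and 9.11 CPM to 28.6, 51.3 and 58.1 CPM (2.63 ± 0.28, edgeR adjusted p = 0.00242) and was called under all 18 alternative settings that were run. Its annotated span overlaps that of Zmynd15, which also rose (2.88 ± 0.44, edgeR adjusted p = 0.0157, up to 0.121 without 1 library), on the opposite strand, and without stated strand information reads of the overlap cannot be told apart. Cxcl5, at chr5:90759360-90761624, attracts neutrophils through CXCR2. It had 1, 1 and 0 counts with Stat3 loss and 21, 106 and 115 counts in the combined group, a ratio of library-scaled counts of 136 (exact 95% counting interval 37.3 to 1130, edgeR adjusted p = 0.00731). This call was lost without Stat3 loss replicate 1 (0.0643) or 2 (0.0673). Cxcl1, another CXCR2 ligand, had 0.225, 0 and 0.0545 CPM against 0.851, 3.72 and 1.15. It did not pass (edgeR adjusted p = 0.153) but was called by DESeq2 (DESeq2 adjusted p = 0.00449).

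Among cytokines, Il23a, at chr10:128296139-128298752, encodes the p19 subunit of IL-23, the cytokine that sustains IL-17-producing cells. Its levels of 0.406, 0.0879 and 0.218 CPM with Stat3 loss and 3.76, 6.74 and 5.03 CPM with both alleles did not overlap (4.41 ± 0.50, edgeR adjusted p = 0.00302). It was the only called gene of 12 tested in the IL-23 and IL-17 axis, whose median was -0.07. Of the TNF superfamily 0 of 20, of the IL-1 family 0 of 15 and of the IL-6 family 0 of 11 tested genes were called, with medians of 0.41, 0.37 and 0.24, counts that for lists of this size are near the 0.41% of all genes called higher. Tnf had 0.135, 0.176 and 1.64 CPM against 1.05, 3.83 and 2.15, overlapping between the groups (1.88, edgeR adjusted p = 0.768). Il6 had 3 counts in Stat3 loss replicate 2 and 0 in the other 5 libraries, and it was not tested. Among receptors, Il7r, the IL-7 receptor chain, had 0.406, 0.176 and 0.109 CPM against 1.001, 2.15 and 1.62 (2.73 ± 0.50, edgeR adjusted p = 0.0427, 0.0889 with the replicate block and up to 0.232 without 1 library).

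**Figure D2:**
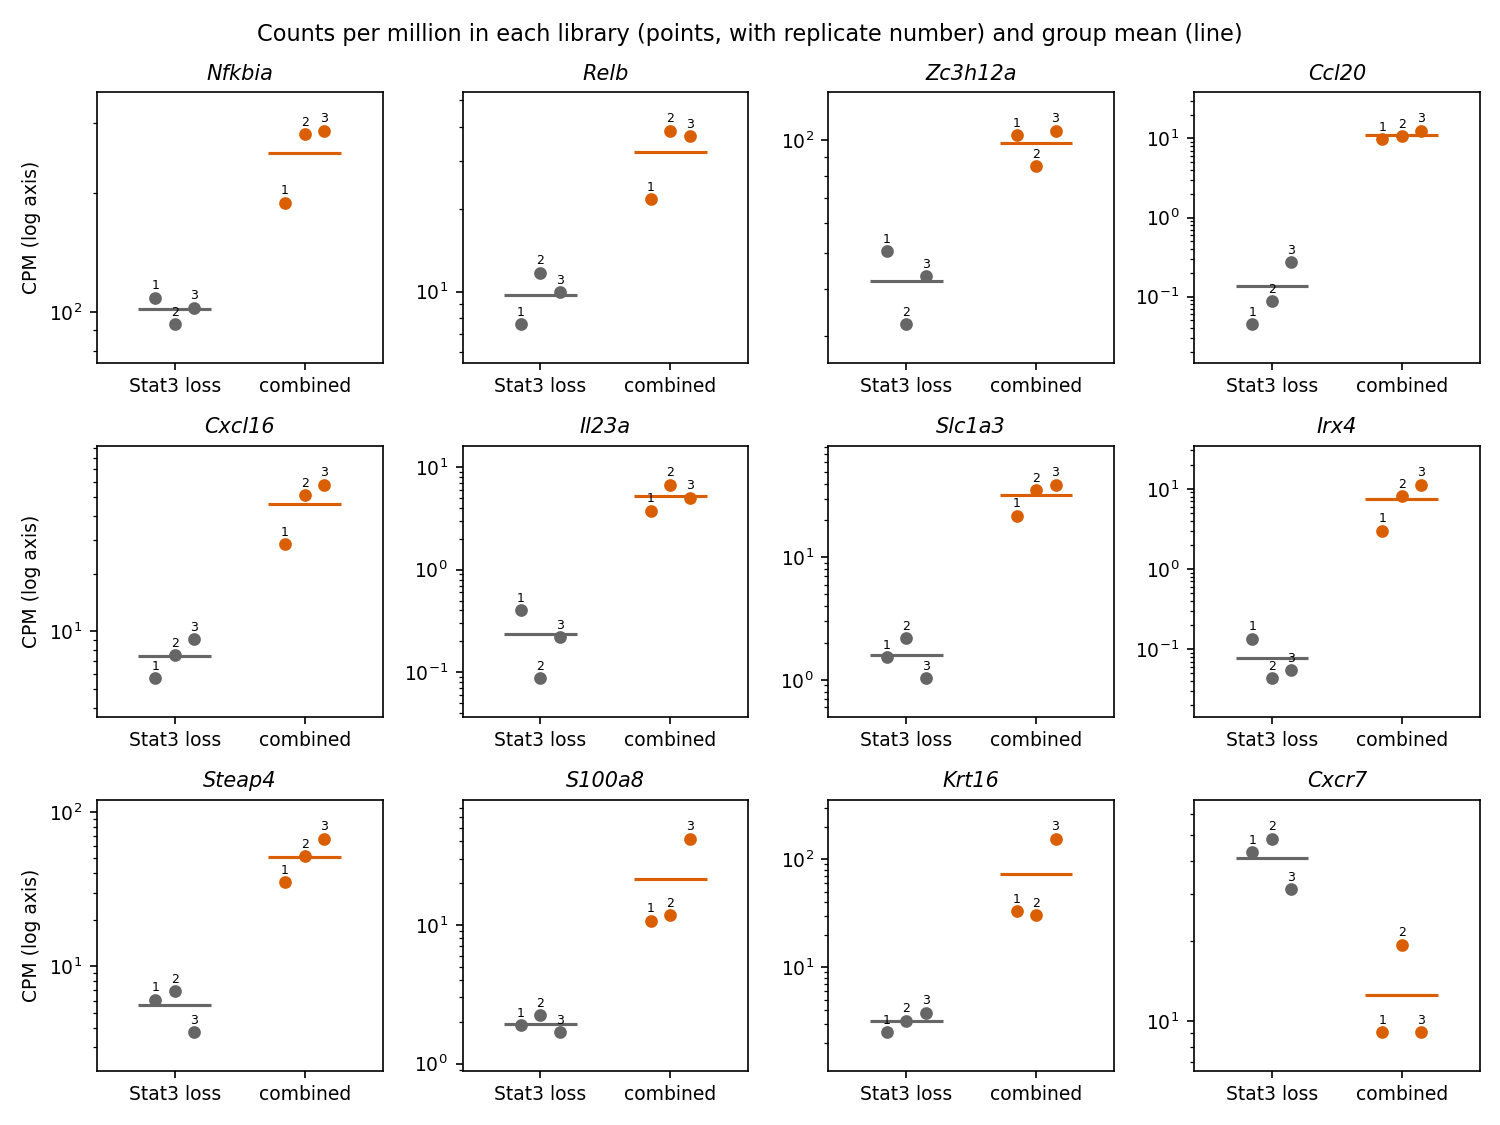
CPM (log axis) of 12 genes in the 3 Stat3 loss libraries (grey) and the 3 combined libraries (orange), with replicate numbers beside the points and a line at each group mean. In all 12 panels the groups are apart, and Cxcr7 is the only one of them that is lower in the combined group.

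Innate sensors and presentation genes rose in part. Nod2, a cytosolic receptor for bacterial peptidoglycan at chr8:88647315-88688474, had 30.6, 25.6 and 25.9 CPM with Stat3 loss and 85.6, 75.3 and 84.6 in combined libraries (1.58 ± 0.23, edgeR adjusted p = 0.0107). Casp4, the inflammatory caspase that senses lipopolysaccharide, had 6.94, 5.76 and 6.82 CPM against 14.8, 25.8 and 23.97 (1.73 ± 0.30, edgeR adjusted p = 0.0387, 0.0683 with the replicate block). These were the called members of 23 tested Toll-like receptor and inflammasome genes, whose median was 0.14, where 0.41% of all genes were called higher. Without 1 library Nod2 lost its call in 3 fits (up to 0.0862) and Casp4 in 5 (up to 0.21).

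Of 18 tested genes on the MHC class I list, which does not hold H2-M2, only H2-K1, a classical heavy chain, was called. It had 170, 149 and 180 CPM against 260, 337 and 345 (0.91 ± 0.16, edgeR adjusted p = 0.0397, up to 0.21 without 1 library). Of the 18 genes 16 lay above 0 (median 0.38), and 0.41% of all genes were called higher. H2-M2, a nonclassical class I gene at chr17:37480851-37483552, had 0 counts in all 3 Stat3 loss libraries and 21, 32 and 56 counts in the combined ones. Set against a floor of 3 counts over the group, it was at least 40.8-fold higher (edgeR adjusted p = 0.00726). MHC genes are near-copies of each other, so reads may have been placed on the wrong member. MHC class II genes had the highest median of the pathway lists, 1.46, with 9 of 9 tested genes above 0, but 0 were called. H2-Eb1, for instance, had 25.2, 25.4 and 10.2 CPM against 29.9, 103 and 53.4 (edgeR adjusted p = 0.318). With a term for libraries rich in Krt4 and Krt13, added after the data had been seen, 5 of the 9 were called higher. That term called 123 of all genes higher.

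Antimicrobial and acute phase genes were led by Chi3l1, a secreted chitinase-like protein at chr1:134182176-134190181. It rose from 1.26, 1.71 and 2.67 CPM to 39.5, 49.7 and 144 CPM (5.37 ± 0.68, edgeR adjusted p = 0.0056, and 0.0515 or 0.0599 without Stat3 loss replicate 1 or 2). S100a8, a subunit of calprotectin at chr3:90668978-90670035, had 1.89, 2.24 and 1.69 CPM with Stat3 loss and 10.8, 11.7 and 41.9 with both. Combined replicate 3 held much of the mean, although the lowest combined library was still above every Stat3 loss library. Its log2 fold change was 3.46 ± 0.55 (edgeR adjusted p = 0.023), with 0.109 to 0.155 when any 1 of the 3 Stat3 loss libraries was left out and 0.0523 with a term, added after the data had been seen, for libraries rich in Krt4 and Krt13.

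The other calprotectin subunit, S100a9, overlapped between the groups at 30.3, 25.8 and 61.6 CPM against 161, 35.95 and 144 (1.53 ± 0.61, edgeR adjusted p = 0.47). It followed the Krt4 and Krt13 share, being lowest in the combined library that was poor in these keratins. Lcn2, the siderophore-binding lipocalin, had 0.180, 0.351 and 0.491 CPM against 1.602, 6.62 and 5.39. It did not pass (3.73 ± 0.72, edgeR adjusted p = 0.0595) but did with the replicate block (0.0478) and by DESeq2 (DESeq2 adjusted p = 9.71e-06). In all, 2 of 22 tested genes of this list were called, both higher, against 0.41% of all genes, and the list median was 0.48. S100a8 and S100a9 are also abundant in neutrophils, whose summed markers were 35.4, 31.8 and 76.3 CPM with Stat3 loss and 179, 49.9 and 199 CPM with both. S100a8 and S100a9 made up most of this sum in each library. Cxcr2, a neutrophil chemokine receptor, had 3.06, 3.73 and 12.98 CPM against 7.51, 1.92 and 11.99, and overlapped. Elane and Trem1 had 0 counts in all 6 libraries, and Csf3r, Mpo and Retnlg were at most 0.314 CPM. The part of neutrophils in these values was not tested.

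Of the keratins of wounded and cornifying epithelium, Krt16 and Krt10 were called, and their partners Krt6b and Krt1 were higher without an edgeR call. Krt16, at chr11:100246091-100248902, marks activated keratinocytes. It had 2.52, 3.21 and 3.82 CPM with Stat3 loss and 32.9, 30.2 and 155 CPM in the combined group (4.51 ± 0.66, edgeR adjusted p = 0.0125), with an adjusted p of 0.0654 to 0.114 when a Stat3 loss library was left out. Krt10, a suprabasal keratin of the epidermis, had 39.3, 26.5 and 25.1 CPM against 339, 161 and 470 (3.42 ± 0.47, edgeR adjusted p = 0.00862, and 0.0837 or 0.0638 without Stat3 loss replicate 2 or 3). Krt6b, the usual partner of Krt16 and a near-copy of Krt6a, had no overlap at 18.4, 21.8 and 45.8 CPM against 210, 63.7 and 586 and did not pass (3.32 ± 0.86, edgeR adjusted p = 0.183). Krt1, the partner of Krt10, had 14.2, 28.1 and 5.67 CPM against 532, 93.0 and 81.9 (3.88 ± 0.91, edgeR adjusted p = 0.134). DESeq2 called both Krt6b and Krt1 (DESeq2 adjusted p 0.00423 and 0.0042).

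The keratins that define the oesophageal layers were not called. The basal keratins Krt5 and Krt14 differed by -0.30 and 0.11 and the suprabasal keratins Krt4 and Krt13 by 0.48 and 0.41 on the log2 scale, each with overlapping groups. Of 28 tested cornified envelope genes 0 were called, although 27 lay above 0 (median 0.48). Sprr2d of this list had 0.0451, 0.132 and 0.491 CPM against 5.51, 2.09 and 10.99, without overlap (4.85 ± 1.05, edgeR adjusted p = 0.102). It passed with the replicate block (0.0478) and by DESeq2 (adjusted p = 0.00131). Of 18 basal layer and basement membrane anchors 0 were called, although 17 lay below 0 (median -0.37). Among all genes tested 7357 lay above 0 and 6776 below. Col17a1, a hemidesmosomal collagen, had 2930, 2933 and 2098 CPM against 1630, 1878 and 1786 (-0.59, edgeR adjusted p = 0.362). In bulk RNA, fewer cells of a layer and less RNA per cell cannot be told apart. Summed suprabasal markers ranged from 59300 to 121000 CPM with Stat3 loss and from 39900 to 159000 in the combined group, and basal markers from 21200 to 27900 and from 16700 to 24100.

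Slc1a3, Rassf6 and Trnp1, the 3 genes with the smallest adjusted p, were outside the inflammatory lists. Slc1a3, a glial-type glutamate and aspartate transporter at chr15:8634124-8710764, had 1.53, 2.20 and 1.04 CPM with Stat3 loss and 21.8, 35.4 and 39.2 CPM in the combined group (4.32 ± 0.34, edgeR adjusted p = 0.000928). Irx4, an Iroquois homeobox gene at chr13:73260479-73269608, went from 0.135, 0.0439 and 0.0545 CPM, 5 counts in all, to 3.004, 8.13 and 11.3 CPM (6.46 ± 0.68, edgeR adjusted p = 0.00242). It was the only called gene of 30 tested squamous transcription factors, whose median was 0.02. Rassf6, a Ras-association domain gene, rose by 3.08 ± 0.28 and Trnp1, a nuclear regulator of proliferation, by 1.62 ± 0.15 (edgeR adjusted p = 0.00146 for both). Within each group the 3 libraries of Trnp1 were nearly alike, at 13.1, 11.3 and 11.9 CPM against 31.99, 41.6 and 38.0.

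Of 15 tested genes of oxidases and their partners, metalloreductases and vanins 3 were called, all higher, where 0.41% of all genes were called higher. Steap4, a metalloreductase at chr5:7960457-7982213, had 6.08, 6.94 and 3.76 CPM against 35.2, 51.6 and 67.1 (3.19 ± 0.33, edgeR adjusted p = 0.00242). It was also the only called gene of 23 tested STAT3 targets, and its promoter is among those printed above. Vnn3, a pantetheinase of the vanin family, had 0.180, 0 and 0.164 CPM with Stat3 loss and 4.06, 10.7 and 8.27 with both (6.03 ± 0.68, edgeR adjusted p = 0.00302). Noxo1, the organizer of the NADPH oxidase NOX1, had 3.88, 3.43 and 2.18 CPM against 15.6, 25.7 and 22.8 (2.75 ± 0.35, edgeR adjusted p = 0.0056). Nox1 itself was at most 0.0581 CPM in any of the 6 libraries and was not tested.

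Further called genes encode secreted or surface proteins. Wnt10b, a Wnt ligand at chr15:98770712-98778150, had 0.676, 1.01 and 0.273 CPM against 6.36, 10.4 and 10.8 (3.78 ± 0.40, edgeR adjusted p = 0.00242). Wnt5a, a noncanonical Wnt ligand, had 2.61, 2.55 and 3.44 CPM against 6.96, 9.23 and 6.91, a rise that was tight within groups but lost its call in all 6 fits without 1 library (1.43 ± 0.25, edgeR adjusted p = 0.0397, up to 0.21). Pthlh, the parathyroid hormone-like hormone, had 2.93, 2.94 and 2.35 CPM against 6.81, 20.04 and 9.42 (2.14 ± 0.36, edgeR adjusted p = 0.0334, up to 0.156 without 1 library). Lrrc32 (GARP), which tethers latent TGFβ at the cell surface, rose by 3.22 ± 0.36, and the secreted protein Lgi2 by 3.02 ± 0.32. Galnt6, an enzyme that starts mucin-type O-glycans, had 0.721, 0.879 and 3.49 CPM against 28.03, 27.2 and 62.6 (4.56 ± 0.59, edgeR adjusted p = 0.00616, and 0.0559 without Stat3 loss replicate 2).

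The remaining higher genes had log2 fold changes between 0.54 (Etv6, an ETS family repressor) and 5.21 (Foxs1, a forkhead gene that rested on 4 counts with Stat3 loss). Herpud1, a component of endoplasmic reticulum quality control, was among the most abundant, at 122, 98.0 and 130 CPM against 176, 214 and 193 (0.74 ± 0.13, edgeR adjusted p = 0.038, 0.0647 with the replicate block and up to 0.18 without 1 library). Pkib, an inhibitor of protein kinase A, had 3 counts in all with Stat3 loss and 35 in the combined group, a ratio of 13.1 (exact 95% counting interval 4.14 to 66.7, edgeR adjusted p = 0.0427). Its call was lost with the replicate block (0.0832) and in all 6 fits without 1 library (0.0831 to 0.22).

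The 7 genes called lower had modest changes at moderate to high levels. Cxcr7, now named Ackr3 (chr1:90203980-90216751), is an atypical receptor that takes up the chemokine CXCL12. It had 43.1, 48.6 and 31.3 CPM with Stat3 loss and 9.11, 19.4 and 9.11 in combined libraries (-1.71 ± 0.31, edgeR adjusted p = 0.0427). Pdgfb, a growth factor for mesenchymal cells, had 34.6, 44.1 and 24.4 CPM against 14.5, 18.6 and 10.8 (-1.23 ± 0.23, edgeR adjusted p = 0.0455). Tns4, a tensin of focal adhesions at chr11:99065678-99089306, was the most abundant of the 7, at 474, 482 and 359 CPM against 203, 237 and 216 (-1.01 ± 0.18, edgeR adjusted p = 0.0414).

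Lpin1, a phosphatidate phosphatase, had 16.5, 16.5 and 12 CPM against 6.76, 7.38 and 6.39 (-1.13 ± 0.21, edgeR adjusted p = 0.0427). The others were Chst3, a chondroitin sulfotransferase (-0.92 ± 0.17), Zbtb7c, a zinc finger gene (-0.78 ± 0.13), and Agfg2 (-0.64 ± 0.12). Each of the 7 lost its call in 4 to 6 of the 6 fits without 1 library. Scaling by library totals left 0 of the 7 called, as did the fits without Stat3 loss replicate 1 or 2 or without combined replicate 3, and the sex term left 2. All 7 stayed below 0 in every alternative run. In fits without 1 library their direction was all but fixed in advance, because the groups did not overlap. With the replicate number as a block 14 genes were called lower and 57 higher, and Agfg2 lost its call (0.0525).

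Of JAK, STAT and SOCS genes 0 of 21 tested were called, with a median of 0.02, where 0.46% of all genes were called. Socs3, the feedback inhibitor that STAT3 induces, had 50.7, 40.4 and 50.0 CPM against 39.3, 66.1 and 26.4 (-0.10, edgeR adjusted p = 0.965). Interferon-stimulated genes had the lowest median of the pathway lists, -0.69, with 24 of 28 tested genes below 0 and 0 called. Oas2, an antiviral enzyme, had 20.7, 2.90 and 5.40 CPM with Stat3 loss and 1.502, 0.813 and 0.523 CPM in the combined group, without overlap (-3.34 ± 0.85, edgeR adjusted p = 0.171). Isg15 overlapped, at 12.6, 3.03 and 9.82 CPM against 3.15, 2.32 and 1.52 (-1.86 ± 0.57, edgeR adjusted p = 0.285). Stat3 loss replicates 1 and 3 were the highest libraries for Oas2 and for Isg15.

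Cell cycle genes were not called either. Of 31 tested DNA replication genes 27 lay below 0 (median -0.31), with Mcm3, a subunit of the replicative helicase, at 37.5, 28.7 and 46.1 CPM against 25.6, 29.7 and 20.9 (-0.56, edgeR adjusted p = 0.584). The 27 mitosis genes had a median of 0.08. All 14 tested AP-1 and immediate early genes lay above 0 (median 0.79), where 7357 of all genes tested lay above 0 and 6776 below. In 1 of the 14, Egr2, the groups did not overlap, against 12.9% of all genes. Fos, for instance, had 5.59, 8.17 and 74.6 CPM with Stat3 loss and 37.5, 97.8 and 38.2 with both, so that Stat3 loss replicate 3 was above 2 of the 3 combined libraries.

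**Figure D3:**
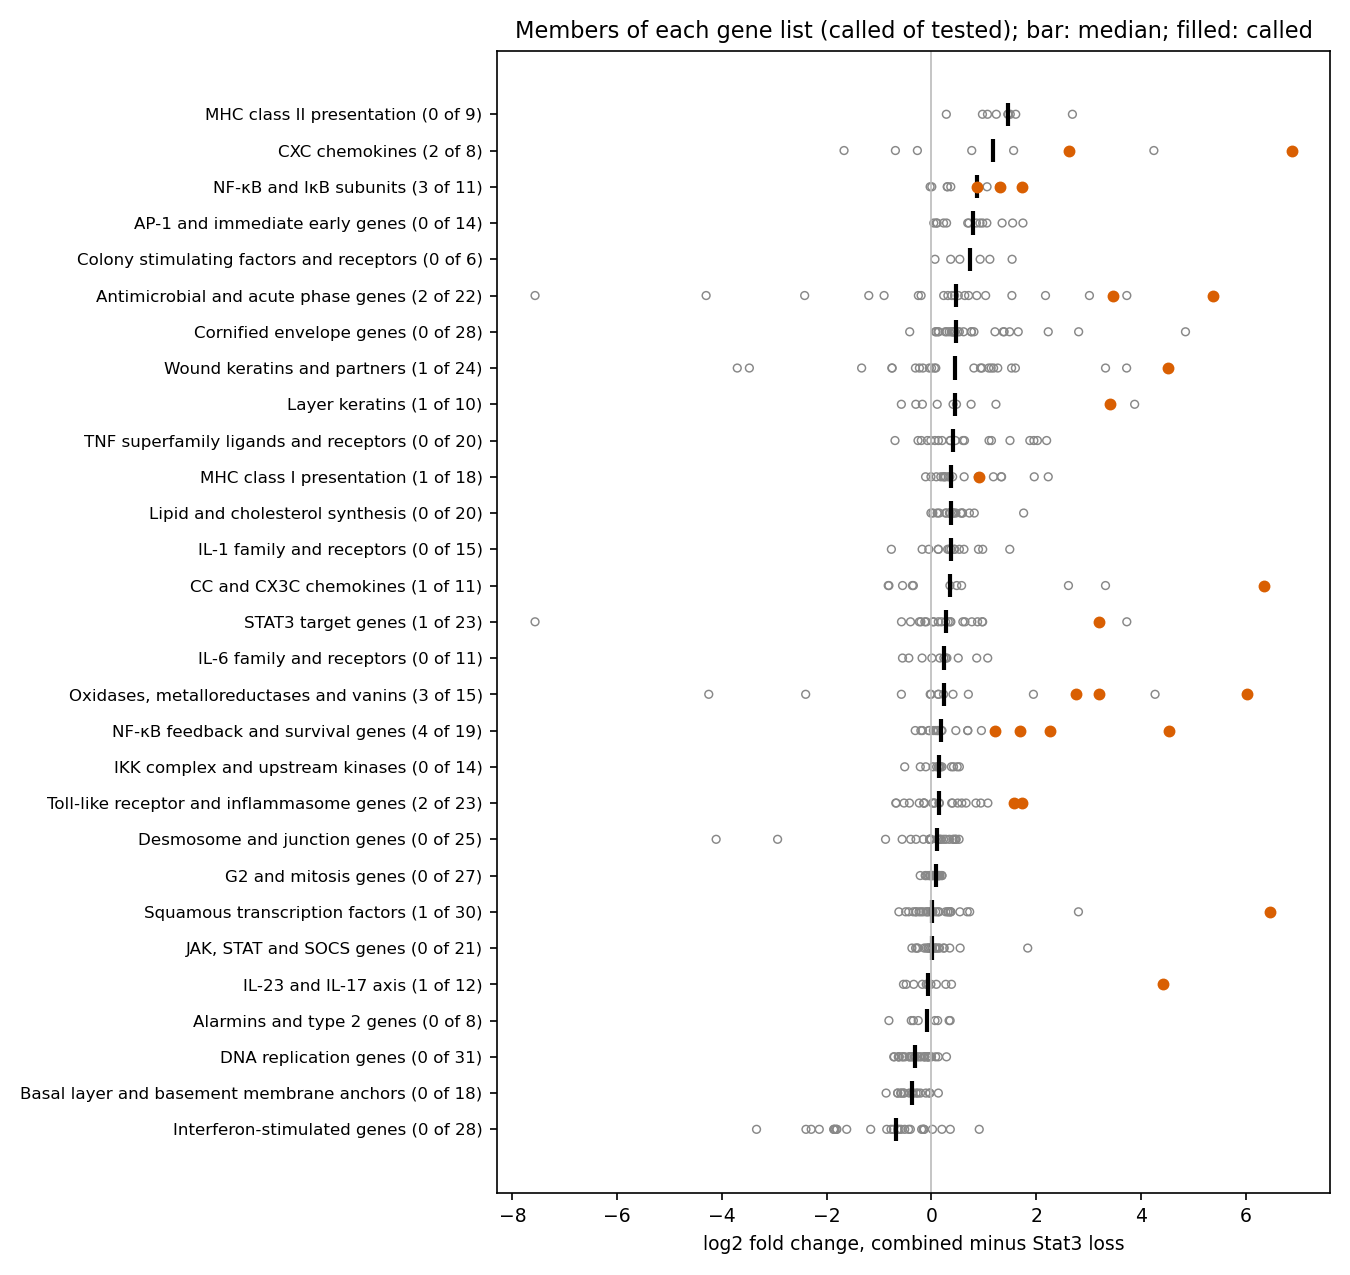
Log2 fold changes, combined minus Stat3 loss, of the tested members of each gene list, 1 list per line and 1 circle per gene, with filled circles for called genes, a bar at the median, and the number called of the number tested beside each name. MHC class II genes have the highest median and interferon-stimulated genes the lowest, and both lists have 0 called genes.

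Markers of cells other than keratinocytes were measured beside these results. Summed macrophage markers were 160, 207 and 110 CPM with Stat3 loss and 145, 149 and 218 in combined libraries, and overlapped. Summed T and NK cell markers were 1.35, 1.54 and 0.545 CPM against 1.20, 3.43 and 1.83. Of their 5 tested genes 5 lay above 0 (median 2.09), 3 without overlap and 0 called. For all genes tested, 7357 lay above 0 and 6776 below, and in 12.9% the groups did not overlap. The part of T and NK cells in rises such as that of Il7r was not tested. Summed dendritic and Langerhans cell markers, mostly Epcam, were 118, 162 and 142 CPM against 127, 168 and 159 and overlapped, with 6 of 7 tested genes above 0 and 0 called. From that list, and chosen after their values were seen, Cd207, which defines Langerhans cells, had 2.03, 2.42 and 0.818 CPM against 3.60, 16.0 and 8.32 (2.39 ± 0.51, edgeR adjusted p = 0.0974), and Itgax, a dendritic cell integrin, had 1.67, 1.45 and 0.655 against 2.65, 8.01 and 5.496 (2.08 ± 0.45, edgeR adjusted p = 0.105). Neither pair of groups overlapped, and both genes were called with the added term for Krt4 and Krt13 (edgeR adjusted p 0.00463 and 0.0127). Their highest library, combined replicate 2, was also the highest for H2-Eb1, and the part of these cells in the values for MHC class II was not tested. Summed fibroblast markers were 765 to 1960 CPM with Stat3 loss and 533 to 1220 CPM with both, with 7 of 7 genes below 0 and 0 called. Skeletal muscle markers were highest in Stat3 loss replicates 2 and 3, at 877 and 1860 CPM, and gastric markers in Stat3 loss replicate 3, at 113 CPM, against at most 263 and 1.95 CPM in the combined group.

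**Figure D4:**
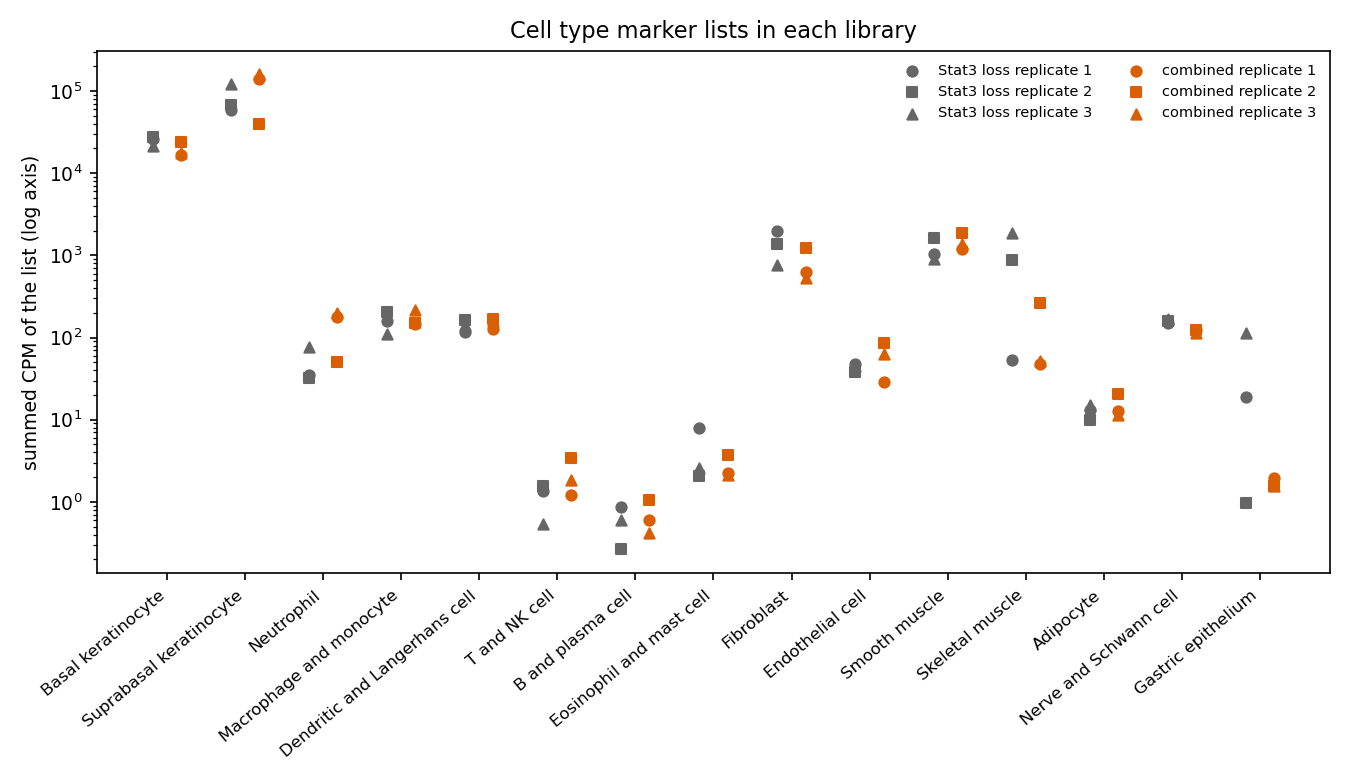
Summed CPM (log axis) of each cell type marker list in the 3 Stat3 loss libraries (grey) and the 3 combined libraries (orange), with a symbol per replicate. Keratinocyte markers are the most abundant lists in all 6 libraries, T and NK cell markers are at most 3.43 CPM, and skeletal muscle and gastric markers are spread most widely between Stat3 loss libraries.

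Active IKKβ was also set against Control, in epithelium where Cre had not acted on Stat3. That contrast shares no library with the one above. Both took their spread from the same fit of all 12 libraries, so their calls are not independent. Active IKKβ minus Control called 127 genes higher (0.899% of genes tested) and 8 lower (0.0566%), 0.955% together. Called in both were 52 genes, all higher in both, which is 80.0% of the 65 and 38.5% of the 135. Of the 65 genes 64 had the same sign in the Stat3-intact contrast, the exception being Lpin1. The median rise of the 58 higher genes was 2.74 with Stat3 deleted and 2.68 with Stat3 intact, and 28 of them rose less with Stat3 deleted. These 58 were selected by their call with Stat3 deleted, which favours larger values there. Genes called only with Stat3 intact are not among them, so the medians cannot show whether the contrasts differ. Across all 14134 genes the correlation of the log2 fold changes was 0.22, over genes that are not independent replicates.

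Values of single genes lay side by side as follows. Slc1a3 rose by 4.32 with Stat3 deleted and by 4.19 with Stat3 intact. Nfkbia rose by 1.31 and 1.11. Ccl20 rose by 6.35 and 4.38, and its combined libraries (9.76 to 12.6 CPM) were above those of active IKKβ alone (1.596 to 3.36 CPM). S100a8 rose by 3.46 and 6.78, and its active IKKβ libraries had 72.0, 123 and 185 CPM. Lcn2 differed by 3.73 without a call and by 5.5 with one, and S100a9 by 1.53 without and by 3.61 with one.

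The difference between the contrasts was tested directly, as an interaction. No gene passed: 0 of 14134 were called by edgeR (smallest adjusted p 0.837), 658 had an unadjusted p below 0.05 (4.66%), and DESeq2 called 5. Of the 65 called genes, which were selected on a contrast that is part of the interaction, 11 had an unadjusted interaction p below 0.05, and no excess can be read from that count. Among them were S100a8 (-3.32 ± 0.77, unadjusted p = 0.00121), Lpin1 (-1.47 ± 0.29, unadjusted p = 0.00035), Tns4 (-0.84 ± 0.25, unadjusted p = 0.00608) and Mt3, a metallothionein (1.59 ± 0.43, unadjusted p = 0.00358). Mt3 had 6.44, 4.48 and 8.56 CPM with Stat3 loss and 25.03, 22.5 and 31.8 in combined libraries (2.03 ± 0.31, edgeR adjusted p = 0.0192, up to 0.114 without 1 library), whereas in the Stat3-intact contrast its change was 0.44 (edgeR adjusted p = 0.583). Control lacks Cre and the other 3 groups carry it, so an effect of Cre and an interaction cannot be told apart.

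**Figure D5:**
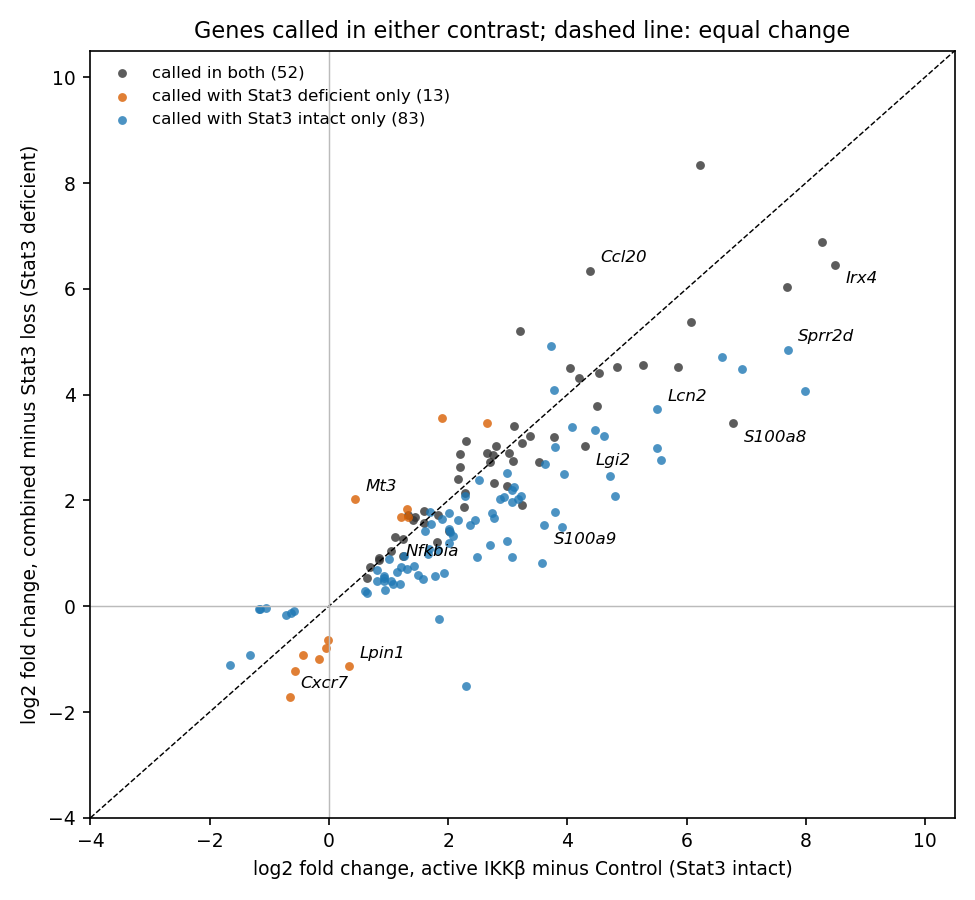
Log2 fold changes of the 148 genes called in either contrast, active IKKβ minus Control (Stat3 intact) on the horizontal axis and combined minus Stat3 loss (Stat3 deficient) on the vertical axis, with a dashed line where both are equal. The 52 genes called in both (dark) scatter around the line, S100a8 and S100a9 lie below it, and Mt3 lies above it.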

How the data were processed

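RNA-seq libraries of 12 samples, 3 in each of 4 genotype groups, were grouped by their labels. Per the submitters' processing notes, the authors trimmed reads with cutadapt 1.13, aligned them to mm10 with STAR and counted them with HTSeq 0.6.1p1. The notes also name DESeq2. The annotation and the strand setting are not given in the sources used here. The deposited values are raw read counts per gene symbol, 23337 in each file, with no scaling.

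Counts were analysed with edgeR 4.0.16 (limma 3.58.1, R 4.3.3). The default filterByExpr rule kept 14134 genes. After TMM scaling, 1 robust quasi-likelihood model was fitted to all 12 libraries, so that the groups share an estimate of the spread. A gene was called at a Benjamini-Hochberg adjusted p below 0.05. The same fit gave active IKKβ minus Control and the interaction. CPM values are TMM-scaled. SE is the unshrunken log2 fold change divided by the square root of the quasi-likelihood F. Exact permutation tests are two-sided. Depth was 14.8 M to 21.4 M counts in the 6 libraries compared, and counting intervals (95%) and the floor of 3 counts cover counting error only. Pairs of libraries within both groups differed by a chi-square of at least 30.1 per degree of freedom, so none was a copy. Positions are from GENCODE M21, which gave 22828 symbols a position. Scripts were tested on simulated data.

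The contrast, the gene lists and the naming rule were chosen with earlier results of these data known. Genes were named if they had the 12 highest or lowest log2 fold changes among called genes without overlap between groups and with average log2 CPM 1 or more, the 5 smallest adjusted p (predicted models, haemoglobins, antigen receptor genes and sex-linked genes left out of both), up to 4 smallest adjusted p within each list, belonged to a set of 5 or fewer, or stood in a set list with genes such as Stat3, Nfkbia, Ccl20 and Krt5. H2-M2, Zmynd15, Foxs1, Lrrc32, Lgi2, Kcnip3, Reep1, Arhgdib, Il7r, Pthlh, Wnt5a, Herpud1, Etv6, Pkib, Mt3, Rela, Rel, Nfkb1, Nfkbiz, Birc3, Tnip1, Bcl2l1, Cflar, Birc2, Fos, Nox1 and the marker genes were chosen after their values were seen.

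Same-numbered libraries deviated together from their group means (correlations 0.121, 0.259 and 0.138), although 1 differently numbered pair, Stat3 loss 3 with combined 1, reached 0.151. A fit with the replicate number as a block is therefore given where it changes the call of a gene named above. It also changed calls of genes that are not named. The pairing comes from the data and the shared numbers, and no label names what replicates share. Replicate 1 was female and replicates 2 and 3 male in every group by Xist and Y-linked counts, and a sex term was an alternative. Alternatives were also DESeq2 1.42.0 (Wald test, and its size factors in edgeR), library totals, other filters, no robust estimation, only the 6 libraries compared, and each library left out. Added after seeing the data were DESeq2 on the 6 libraries, those 6 with the block, and a term for libraries with over 8% of counts in Krt4 and Krt13.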

Additional observations from a re-analysis of the deposited data

How the results depend on the processing

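Counts of genes called in the combined group against Stat3 loss, 58 higher and 7 lower, moved most with the test and the libraries used. They were 194 and 98 with the DESeq2 Wald test, 16 and 0 with edgeR on only the 6 libraries compared, 29 and 0 with library totals, and, by alternatives added after seeing the data, 156 and 67 with DESeq2 on those 6 libraries, 123 and 31 with the term for Krt4 and Krt13 and 28 and 2 with the 6 libraries and the replicate block. With the replicate block alone, in which same-numbered libraries were paired, 57 were higher and 14 lower, and 48 and 6 of the calls were kept. Leaving out 1 library gave 20 to 77 higher and 0 to 5 lower. For active IKKβ against Control, 127 higher and 8 lower, the counts were 319 and 100 with DESeq2, 64 and 2 with library totals, 61 and 0 with 6 libraries, 264 and 64 with the term for Krt4 and Krt13, 151 and 22 with the replicate block, 124 and 17 with the sex term, and 42 to 79 and 0 to 38 without 1 library. The interaction had 0 calls under every edgeR setting run and 5 with DESeq2. Why the counts moved was not tested. Of the 65 called genes 8 were called under all 18 settings: Cxcl16, Irx4, Kcnip3, Lgi2, Lrrc32, Noxo1, Slc1a3 and Trnp1. None of the 65 reversed its direction in any alternative. For fits without 1 library this was all but fixed in advance, because the groups did not overlap. The fits without robust estimation, with DESeq2 size factors and with other count filters kept the number of higher genes within 57 to 59. With 3 libraries a group, the smallest called changes were 0.54 (Etv6) and -0.64 (Agfg2), and 1 count in combined replicate 2, the shallowest library, is 0.0581 CPM.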

Other observations

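DESeq2 called 5 genes in the interaction, all smaller or lower in the contrast with Stat3 deleted, and edgeR called 0 of them (adjusted p 0.837 to 1). Irak3, an inhibitor of Toll-like receptor signalling, had 7.14, 6.63 and 9.20 CPM with active IKKβ and 1.91 to 2.40 CPM in Control, but 1.95, 2.90 and 2.09 CPM in the combined group and 2.88, 3.51 and 1.75 with Stat3 loss (-2.10 ± 0.44, DESeq2 adjusted p = 0.0133). All 3 active IKKβ libraries were thus above the other 9. Kcna7, a potassium channel gene, was high with either change alone (0.946, 1.21 and 0.774 CPM with active IKKβ, 0.631, 0.659 and 0.873 CPM with Stat3 loss) and low with both (0.150, 0.290 and 0.314 CPM), where it lay near Control at 0.152 to 0.224 CPM (-3.87 ± 0.85, DESeq2 adjusted p = 0.0196). Phf15 had 20.4, 20.7 and 25.97 CPM with active IKKβ and 14.5, 12.6 and 13.7 with both, while Stat3 loss alone had 25.4, 25.7 and 18.5 (-1.25 ± 0.25, DESeq2 adjusted p = 0.0133). The other 2 were S100a8 (-3.32 ± 0.73) and Lpin1 (-1.49 ± 0.31). These genes were chosen after their values were seen, and the role of Cre in them cannot be told apart from the interaction.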
